A study of Mus musculus with 6 samples.

Results

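The phagocyte NADPH oxidase is represented here by 6 genes, taken by symbol from the deposited expression table: Cybb, Cyba, Ncf1, Ncf4, Rac1 and Rac2. Each symbol stood on 1 of the 54347 gene rows, and all 6 were among the 12652 genes with a mean of at least 1 TPM that were tested. TPM is an abundance per transcript length that sums to 1000000 in every library, so levels can be compared between genes, but the read depth behind a value is unknown.

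The cells were microglia, the macrophages of the brain, cultured from C57BL/6 pups at postnatal day 2 to 3. One group was Plcg2+/+ (3 libraries) and the other was Plcg2-/- littermates (3 libraries), which lack phospholipase C gamma 2, an enzyme that turns signals from immune receptors into calcium and protein kinase C activity. Both groups grew with astrocytes in 10% serum and 5 ng/mL GM-CSF until the microglia were shaken off on day 12 to 13, then rested for 72 h or more in 1% serum and 0.5 ng/mL GM-CSF, without a stimulus named in the labels. Libraries are named by genotype and replicate number. The labels do not say whether replicates came from different pups, so the p-values measure only how far these samples scatter. Part of that scatter may be technical, but Xist and Y-linked genes, given with Cybb, differed within each genotype, so the libraries of a genotype were not all repeats of 1 source of RNA. Exons that the Plcg2 deletion removes were a detail not given in the sources used here.

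Oxidase complexes of this kind move electrons from NADPH across a membrane to oxygen and so make superoxide. The catalytic core is a membrane heterodimer of gp91phox, encoded by Cybb, and p22phox, encoded by Cyba. In resting cells the cytosolic subunits p47phox (Ncf1) and p40phox (Ncf4) are held apart from that core. Phosphorylation by protein kinase C brings them to the membrane, which is why the complex lies downstream of phospholipase C gamma 2. A Rac GTPase is also needed to complete the complex. Microglia are the main cells of the brain known to carry it. These data are transcript levels, and neither assembly nor superoxide was measured.

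The first check was on the labels and the cells. Plcg2 was 45.2, 39.7 and 54.9 TPM in the Plcg2+/+ libraries, against 16.0, 16.7 and 16.1 TPM in those labelled Plcg2-/-, a fall of 1.45 ± 0.14 log2 units (SE; adjusted p = 0.00141, limma). Of the microglia markers, Csf1r, Tyrobp and Trem2 were at 251 TPM or more in every library, whereas Tmem119, Cx3cr1 and Sall1, markers of microglia in the intact brain, did not exceed 2.92 TPM. P2ry12 and Fcrls, further markers of this kind, averaged 5.68 and 2.80 TPM in Plcg2+/+ and 23.8 and 37.3 TPM in Plcg2-/-. The 11 microglia markers summed to 4777 to 5895 TPM in Plcg2+/+ and 4224 to 5100 TPM in Plcg2-/-, and 3 of the 9 tested were higher and 3 lower. Of 12 neutrophil markers, a cell type also rich in this oxidase, Ly6g, Elane and Retnlg were listed at 0 in all 6 libraries, and Mpo did not exceed 0.0585 TPM. The neutrophil list summed to 241 to 303 TPM in Plcg2+/+ and 220 to 344 TPM in Plcg2-/-, most of it from Mmp8. Csf3r of that list averaged 19.9 TPM in Plcg2+/+ and 58.7 TPM in Plcg2-/-, and S100a8 averaged 42.2 and 33.1 TPM. Of the 3 neutrophil markers tested, 1 was higher and 0 lower (all genes: 15.6% and 5.31%). Markers of monocytes and border macrophages summed to 385 to 431 TPM in Plcg2+/+ and 906 to 1040 TPM in Plcg2-/-, carried by Mrc1, Ms4a7 and Pf4, while Lyve1 and Cd163 did not exceed 0.0731 TPM. Lymphocyte markers summed to at most 6.32 TPM, fibroblast markers to at most 9.76 and neuron markers to at most 11.5. Astrocyte markers summed to 30.9 to 60.8 TPM, oligodendrocyte lineage markers to 70.7 to 138, and endothelial markers, mainly Vwf, to 152 to 233 TPM in Plcg2+/+ and 73.5 to 177 in Plcg2-/-. Mitochondrially encoded genes took 13.6 to 17.3% of all TPM in Plcg2+/+ and 5.00 to 8.68% in Plcg2-/-, and the median log2 fold change of all genes tested was 0.19. The part of this share in the results below was examined only by a fit rescaled without mitochondrially encoded genes, given among the alternatives. The part of these other cell types was not tested. In bulk RNA, fewer cells of a type and less RNA per cell cannot be told apart.

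RefSeq's table of start sites (GRCm38.p6) held promoters for 3 of the 6 genes: Cybb, Cyba and Ncf1. The 180 bases before the start of Cybb (chrX:9469325-9469504, minus strand) and of Ncf1 (chr5:134229626-134229805, minus strand) are shown because both hold a repeat. It sets GAAA 2 times in a row, 2 free bases apart, and interferon regulatory factors are known to bind it. A further reason is that Irf1, a gene for such a factor, differed between these groups. Irf2, another, named after its values were seen, differed as well, while Irf8 did not pass the test. The start used for Cybb lies inside the longer span that GENCODE M21 gives this gene. Capitals mark motif matches on either strand.

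Cybb: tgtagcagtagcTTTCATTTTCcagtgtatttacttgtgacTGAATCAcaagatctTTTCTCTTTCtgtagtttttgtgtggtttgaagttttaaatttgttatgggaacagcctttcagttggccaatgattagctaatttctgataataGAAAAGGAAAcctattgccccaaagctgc

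Ncf1: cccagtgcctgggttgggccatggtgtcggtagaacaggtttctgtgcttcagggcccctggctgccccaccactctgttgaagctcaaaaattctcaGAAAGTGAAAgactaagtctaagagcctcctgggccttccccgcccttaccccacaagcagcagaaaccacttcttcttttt

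Cybb held 3 matches to this repeat, beginning 168, 124 and 29 bases before the start. It held 1 match to TGANTCA, beginning 139 bases before the start. TGANTCA is a loose form of the AP-1 motif in which the middle base is free, and that base is A in Cybb. Ncf1 held 1 match to the repeat, beginning 82 bases before its start. Of 32851 windows of the same length in the table, 2.01% held the repeat and 4.97% held TGANTCA. The letters GAGGAA, bound by PU.1, and the composite site of PU.1 with an interferon regulatory factor (the same repeat with GGAA as its first unit) matched in none of the 3 windows, and occurred in 17.1% and 1.63% of all windows. A match is letters in a window and no measured binding.

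The comparison asks how far transcripts of the oxidase differ when phospholipase C gamma 2 is lost. The membrane core was the most abundant part of the complex and did not pass the test in either gene, while both Rac genes rose. Of the 6 genes, limma called 2 higher and 0 lower when Plcg2 was lost, at an adjusted p below 0.05. Over all genes tested, 15.6% were called higher and 5.31% lower, 20.9% in all, so the count is near the background. The groups did not overlap for 3 of the 6 genes, all higher in Plcg2-/-, against 43.3% of all genes tested, 32.4% higher and 10.9% lower. After median-of-ratios scaling, which brings the median log2 fold change of all genes to 0.028, limma called 1 of the 6 higher and none lower (2 higher with the replicate pairs as a block as well), against 7.88% higher and 7.21% lower over all genes. The median log2 fold change was 0.20 for the 6 genes and 0.19 for all genes tested.

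**Figure D1:**
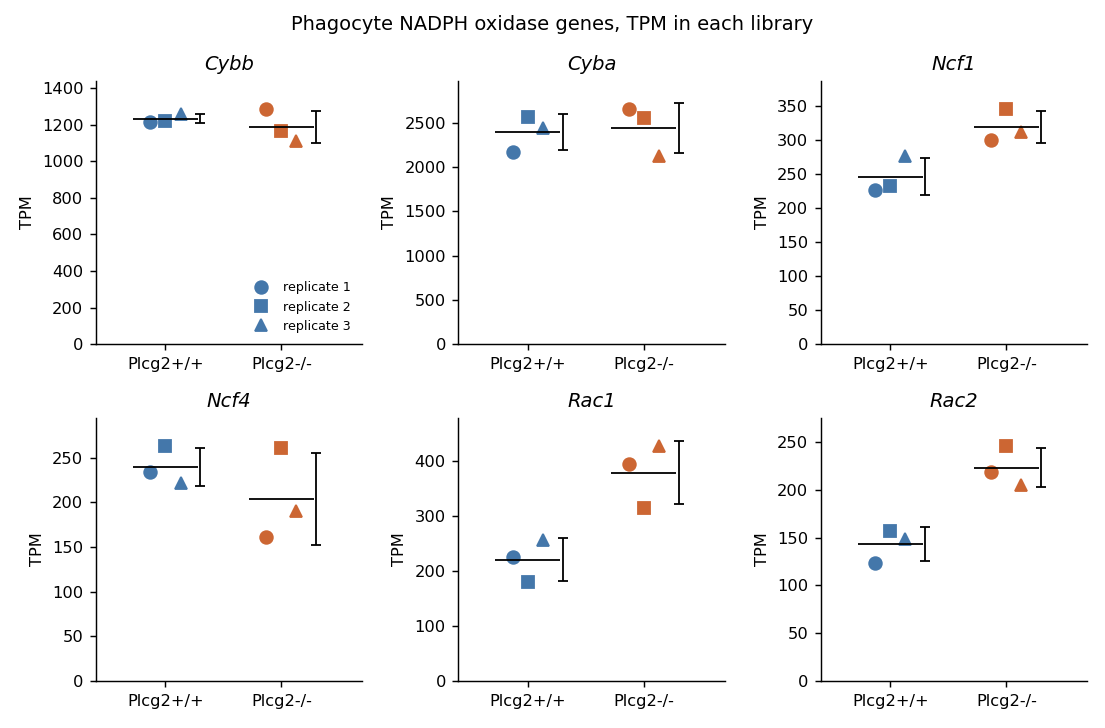
TPM of each oxidase gene (vertical axes, from 0) in the 3 Plcg2+/+ libraries (blue) and the 3 Plcg2-/- libraries (orange); symbols give the replicate number, horizontal lines the means and bars the SD. The groups overlap for Cybb, Cyba and Ncf4, and do not overlap for Ncf1, Rac1 and Rac2, where Plcg2-/- is higher.

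Cybb (ENSMUSG00000015340.10, GRCm38 chromosome X, 9435252 to 9487771, minus strand) encodes the subunit that carries the haem and flavin and passes the electrons. Its level was 1216, 1219 and 1260 TPM in Plcg2+/+ and 1284, 1166 and 1113 TPM in Plcg2-/-. The 3 Plcg2+/+ values lay within the spread of the Plcg2-/- values. The means were 1232 ± 24.7 and 1188 ± 87.6 TPM (SD, n = 3 each), a fold of 0.963 with a 95% interval of 0.79 to 1.17 (adjusted p = 0.775, limma). Cybb is X-linked, and the libraries differed in Xist: it was 50.5 TPM in Plcg2+/+ 1, at most 1.02 TPM in Plcg2+/+ 2 and 3, and 18.4, 49.4 and 40.2 TPM in Plcg2-/- 1 to 3. The mean log2(TPM + 1) of Y-linked genes was 0.12, 4.20 and 4.10 in the Plcg2+/+ libraries and 3.54, 0.25 and 0.30 in the Plcg2-/- libraries, so Plcg2-/- 1 held both kinds of transcript. With the level of Y-linked genes as a covariate, limma gave Cybb an adjusted p of 0.946.

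Cyba (ENSMUSG00000006519.11, chromosome 8, 122424776 to 122432930, minus strand) encodes the partner that stabilises gp91phox and docks p47phox. Its level was 2170, 2568 and 2438 TPM in Plcg2+/+ and 2652, 2548 and 2119 TPM in Plcg2-/-. The lowest and the highest of the 6 values were both in Plcg2-/-. The means were 2392 ± 203 and 2440 ± 283 TPM (SD, n = 3 each), a fold of 1.02 with a 95% interval of 0.79 to 1.31 (adjusted p = 0.921, limma). A p above the threshold does not show equal levels, but on deposited TPM both intervals leave out a 1.5-fold change in either direction. After quantile normalization the log2 fold change of Cyba was 0.28 ± 0.15 (SE).

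Cybb and Cyba proteins form a 1:1 dimer, and the ratio of their transcripts within a library does not depend on how the library was scaled. It was 0.560, 0.475 and 0.517 in Plcg2+/+ and 0.484, 0.458 and 0.525 in Plcg2-/-, with overlapping groups. The log2 ratio differed by -0.08 between the genotypes (two-sided exact permutation p = 0.5, adjusted 0.6 over the 3 ratios tested). In every library there was thus about 1 Cybb transcript for 2 Cyba transcripts. Together they made up 80.4 to 82.0% of the summed TPM of the 6 genes in Plcg2+/+ and 74.0 to 78.6% in Plcg2-/-.

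Among the cytosolic subunits, Ncf1 and Ncf4 had opposite signs, and neither passed the test. Ncf1 (ENSMUSG00000015950.13, chromosome 5, 134220053 to 134229625, minus strand) encodes p47phox, the organiser that protein kinase C phosphorylates. Its level was 227, 233 and 277 TPM in Plcg2+/+ and 300, 345 and 312 TPM in Plcg2-/-. Every Plcg2-/- value lay above every Plcg2+/+ value. The fold was 1.30 with a 95% interval of 1.06 to 1.60, and a log2 fold change of 0.38 ± 0.12 (SE), for which limma gave an adjusted p of 0.0719, and 0.0402 without Plcg2+/+ 3. That change was 0.19 above the median of all genes tested.

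Ncf4 (ENSMUSG00000071715.12, chromosome 15, 78244801 to 78262580, plus strand) encodes p40phox, whose PX domain binds phosphatidylinositol 3-phosphate on phagosomes. Its level was 234, 263 and 222 TPM in Plcg2+/+ and 161, 261 and 190 TPM in Plcg2-/-. Plcg2-/- 2 lay among the Plcg2+/+ values and the other 2 Plcg2-/- libraries lay below them. The log2 fold change was -0.26 ± 0.19 (SE), with a 95% interval of -0.71 to 0.19 (adjusted p = 0.357, limma), and it was -0.45 relative to the median of all genes tested. Without Plcg2-/- 2 the fold change was -0.45 (adjusted p = 0.0743, limma).

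The ratio of Ncf1 to Ncf4 within a library was 0.972, 0.884 and 1.25 in Plcg2+/+ and 1.87, 1.32 and 1.64 in Plcg2-/-. The lowest Plcg2-/- ratio was above the highest Plcg2+/+ ratio. The log2 ratio was higher by 0.64, from 0.03 ± 0.256 to 0.67 ± 0.252 (SD, n = 3 each; two-sided exact permutation p = 0.1, adjusted 0.3 over the 3 ratios). For 3 against 3 libraries 0.1 is the smallest p this test can give, so it cannot pass the threshold. The difference was 0.53 to 0.78 when any 1 library was left out.

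**Figure D2:**
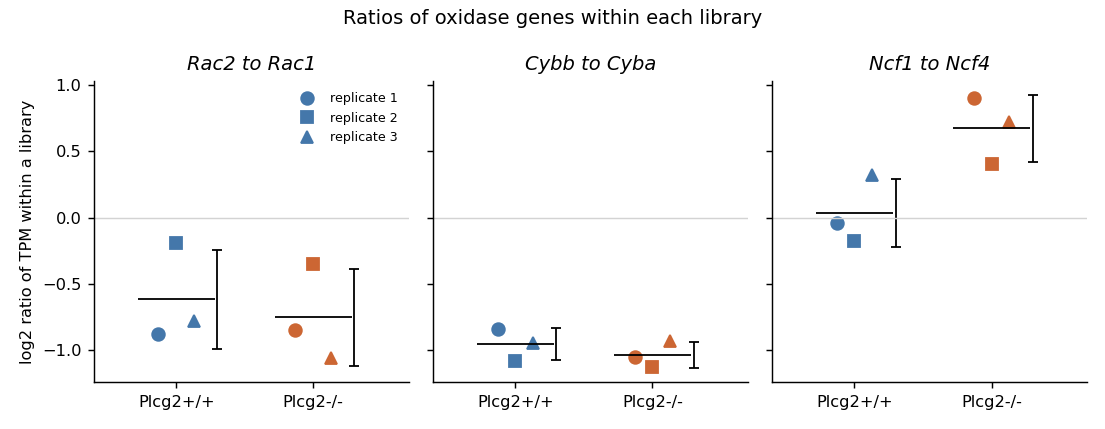
log2 ratio of TPM between pairs of oxidase genes within each library (vertical axis; 0 is equal abundance), Plcg2+/+ in blue and Plcg2-/- in orange, with symbols for the replicate number, lines for the means and bars for the SD. The ratio of Ncf1 to Ncf4 does not overlap between genotypes (means 0.03 and 0.67), and the other ratios overlap.

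The Rac GTPases complete the oxidase when they are bound to GTP, and Rac2 is the form restricted to blood cells. Rac2 (ENSMUSG00000033220.7, chromosome 15, 78559167 to 78572783, minus strand) was 123, 157 and 149 TPM in Plcg2+/+ and 219, 246 and 205 TPM in Plcg2-/-. The lowest Plcg2-/- library was above the highest Plcg2+/+ library. Rac2 rose 1.56-fold, with a 95% interval of 1.25 to 1.95, from 143 ± 18.0 to 223 ± 20.9 TPM (SD, n = 3 each; adjusted p = 0.0196, limma). Its log2 fold change was 0.65 ± 0.14 (SE), 0.46 above the median of all genes. Rac2 lost its call (adjusted p by limma) when scaled by median of ratios (0.0671, but 0.0493 with the replicate pairs as a block as well) or quantile normalized (0.124), and when Plcg2+/+ 1 (0.0672) or Plcg2-/- 1 (0.0706) was left out.

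Rac1 (ENSMUSG00000001847.14, chromosome 5, 143503634 to 143528036, minus strand) is the ubiquitous form, which also drives lamellipodia and phagocytic cups. It was 226, 179 and 256 TPM in Plcg2+/+ and 394, 315 and 427 TPM in Plcg2-/-, with no overlap. Rac1 rose 1.72-fold, with a 95% interval of 1.28 to 2.30, from 220 ± 38.6 to 379 ± 57.7 TPM (SD, n = 3 each; adjusted p = 0.0249, limma). Its log2 fold change was 0.78 ± 0.18 (SE), 0.59 above the median of all genes, and it passed after median-of-ratios scaling (adjusted p = 0.0462, limma). It lost its call (adjusted p by limma) when Plcg2+/+ 1 (0.0742), Plcg2+/+ 2 (0.0587), Plcg2-/- 1 (0.0923) or Plcg2-/- 3 (0.0846) was left out. The same held with no filter on low genes (0.0593), after quantile normalization (0.0501) and with Y-linked expression as a covariate (0.0726).

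The Rac1 value is uncertain for a reason of annotation. The last exon of Rac1 overlaps the last exon of Daglb (ENSMUSG00000039206.13, plus strand, 143464584 to 143505942) over 2309 bases of chromosome 5, 143503634 to 143505942, on the opposite strand in GENCODE M21. Daglb encodes a diacylglycerol lipase. Of 4494 different 31-base words in the Rac1 transcripts, 2305 (51.3%) also occur in transcripts of other genes, 2279 of them in Daglb, and 0 in Rac2. Whether the libraries kept strand was a detail not given in the sources used here. Without strand, reads from this stretch cannot be told apart. The overlap was looked for after the Rac1 values were seen.

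Daglb was 97.4, 138 and 70.4 TPM in Plcg2+/+ and 28.6, 34.6 and 29.2 TPM in Plcg2-/-, a log2 fold change of -1.65 ± 0.24 (SE; adjusted p = 0.00581, limma). Within each genotype the library with the highest Daglb value had the lowest Rac1 value, namely Plcg2+/+ 2 and Plcg2-/- 2. The sum of Rac1 and Daglb was 323, 318 and 327 TPM in Plcg2+/+ and 423, 349 and 456 TPM in Plcg2-/-, with no overlap. Its SD (n = 3) was 4.53 TPM in Plcg2+/+, against 38.6 for Rac1 and 34.1 for Daglb alone, and 54.6 TPM in Plcg2-/-, against 57.7 and 3.28. The sum had a log2 fold change of 0.33 ± 0.13 (SE), with a 95% interval of 0.03 to 0.64, and did not pass (adjusted p = 0.108, limma). TPM divides by transcript length, so this sum is not a count of shared reads, and how reads were assigned between the genes was not tested.

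**Figure D3:**
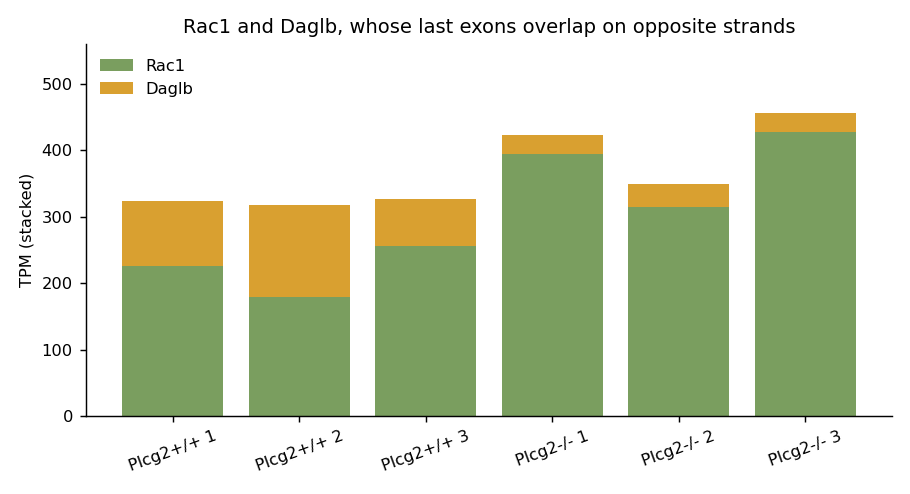
Stacked TPM (vertical axis, from 0) of Rac1 (green) and Daglb (amber) in each of the 6 libraries. The stacks are 318 to 327 TPM high in Plcg2+/+ and 349 to 456 TPM in Plcg2-/-, and the Daglb part is smaller in every Plcg2-/- library.

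The span of Ncf1 overlaps that of Gtf2ird2 on the opposite strand over 4303 bases. Gtf2ird2, a transcription factor gene, had a mean of 8.41 ± 0.260 TPM in Plcg2+/+ and 7.21 ± 0.718 TPM in Plcg2-/- (SD, n = 3 each). For the summed pair limma gave an adjusted p of 0.0791. Of the 31-base words of Ncf1, 9.84% occurred in transcripts of other genes, as did 7.39% of those of Cyba, 4.42% of Rac2, and none of Cybb or Ncf4.

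Rac2 made up 35.2, 46.6 and 36.8% of the summed Rac1 and Rac2 TPM in Plcg2+/+ and 35.7, 43.9 and 32.5% in Plcg2-/-. By these values Rac1 was the more abundant form in every library, and the replicates numbered 2 had the highest Rac2 share in both genotypes. Both points rest on the uncertain level of Rac1, which was 179 TPM against 157 TPM for Rac2 in Plcg2+/+ 2. The log2 ratio of Rac2 to Rac1 differed by -0.13 between genotypes (two-sided exact permutation p = 0.6), and by 0.31 with Daglb added to Rac1 (p = 0.3). Together the 2 forms summed to 363 ± 36.9 and 602 ± 36.8 TPM (SD, n = 3 each) without overlap (two-sided exact permutation p = 0.1, the smallest possible; 2 sums were tested). All 6 genes together summed to 4472 ± 240 and 4752 ± 341 TPM (SD, n = 3 each; two-sided exact permutation p = 0.3).

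The order of mean levels differed below the membrane core. In Plcg2+/+ it ran Cyba, Cybb, Ncf1, Ncf4, Rac1 and Rac2. The ranges of Ncf1, Ncf4 and Rac1 overlapped one another, while Rac2 lay below all of them. In Plcg2-/- it ran Cyba, Cybb, Rac1, Ncf1, Rac2 and Ncf4, with overlap between Rac1 and Ncf1 and between Rac2 and Ncf4. The place of Rac1 rests on its uncertain level: with Daglb added it averaged 322 and 409 TPM, above Ncf1 in both genotypes. Cyba was above 99.7% and Rac2, the gene with the lowest mean, above 94.6% of all genes tested.

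Likeness of pattern was measured as the root-mean-square distance between log2(TPM + 1) values over the 6 libraries, each gene centred on its own mean. The genes nearest to Cybb were Cyhr1, Pgrmc2 and Mrps26 (distances 0.0319, 0.0422 and 0.0471), and those nearest to Cyba were Pym1, Clk3 and Alkbh6 (0.0339, 0.0363 and 0.0505). Gtf2h5, Crls1 and Mecr were nearest to Ncf1 (0.0281, 0.0392 and 0.0399) and Hsf4, Rnf167 and Pick1 to Ncf4 (0.0244, 0.0488 and 0.0763). Cab39l, Rab22a and Mob1a were nearest to Rac1 (0.0449, 0.0457 and 0.0515) and Ahsa1, Grtp1 and Fez2 to Rac2 (0.0708, 0.0721 and 0.0784). No oxidase gene was among the 3 nearest of another: the closest members were Cybb and Cyba, at 0.0983, and Ncf1 and Rac2, at 0.177.

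The lists below are read beside the shares over all genes, 15.6% higher and 5.31% lower, or 7.88% and 7.21% after median-of-ratios scaling. Of 16 genes of assembly and regulation, 5 were higher and 2 lower. Cybc1, the chaperone needed for the gp91phox and p22phox dimer, stood at 77.5 ± 5.20 and 81.4 ± 4.24 TPM (SD, n = 3 each; adjusted p = 0.650, limma). Hvcn1, the proton channel that balances the charge the oxidase moves, was 322, 493 and 299 TPM in Plcg2+/+ and 184, 221 and 222 TPM in Plcg2-/-. It fell by 0.80 ± 0.21 log2 units (SE; adjusted p = 0.0359, limma), and it lost that call when Plcg2+/+ 1 (0.0746), Plcg2-/- 1 (0.126), Plcg2-/- 2 (0.0637) or Plcg2-/- 3 (0.0852) was left out, with no filter (0.0845) and with the Y-linked covariate (0.0951).

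Among kinases that phosphorylate oxidase subunits, Prkcd had a mean of 330 TPM in both genotypes (adjusted p = 0.998, limma). Prkcb fell from 87.6 ± 13.3 to 43.9 ± 16.9 TPM (SD, n = 3 each; adjusted p = 0.0482, limma, called in 1 of the 6 fits that leave out a library). Prkcb was named after its values were seen, because it is the other lower gene. Pak1, a Rac-activated kinase, rose by 1.34 ± 0.14 log2 units (SE) and Rap1a, a small GTPase found with the membrane core, by 0.91 ± 0.14 (adjusted p = 0.00186 and 0.00739, limma), and both kept their call when any 1 library was left out. The list's median log2 fold change was 0.46. Counts, higher and lower, were 2 and 3 after median-of-ratios scaling. They were 2 and 0 when Plcg2+/+ 1, Plcg2-/- 1 or Plcg2-/- 3 was left out, 3 and 1 when Plcg2+/+ 2 was, 5 and 1 when Plcg2+/+ 3 was, and 9 and 1 when Plcg2-/- 2 was.

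**Figure D4:**
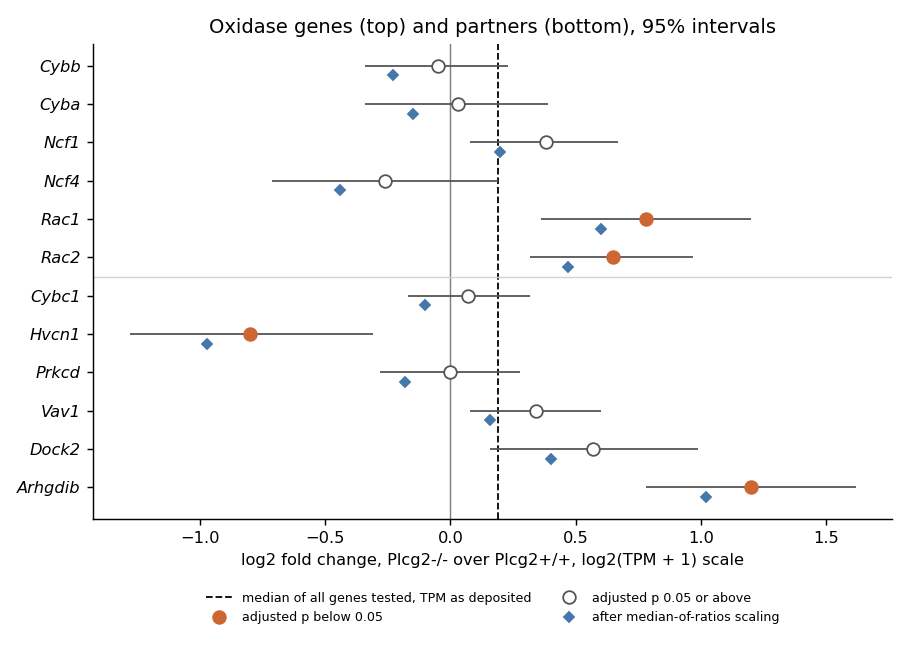
log2 fold change (horizontal axis, Plcg2-/- over Plcg2+/+) of the 6 oxidase genes above the grey line and 6 partner genes below it, with 95% intervals from limma; filled circles passed the test, and diamonds give the value after median-of-ratios scaling. The intervals of Rac1, Rac2 and Arhgdib lie wholly to the right of the dashed median of all genes (0.19), and that of Hvcn1 lies wholly to the left of 0.

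Other NADPH oxidases were near the floor of these libraries. Nox1, Nox3, Noxa1, Duox1, Duox2, Duoxa1 and Duoxa2 did not exceed 0.175 TPM in any library, Nox4 reached 1.08 TPM in Plcg2+/+ and 0.643 TPM in Plcg2-/-, and Noxo1 reached 1.47 TPM. Rac3, the only tested member of the 10, stood at 4.85 ± 0.666 and 4.10 ± 1.86 TPM (SD, n = 3 each; adjusted p = 0.545, limma).

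Some genes for proteins that hold Rac inactive rose. Arhgdib, the GDP dissociation inhibitor of blood cells, was 227, 186 and 296 TPM in Plcg2+/+ and 571, 523 and 512 TPM in Plcg2-/-. It rose by 1.20 ± 0.18 log2 units (SE; adjusted p = 0.00647, limma), and kept its call when any 1 library was left out. Arhgdia, its ubiquitous relative, rose from 361 ± 47.2 to 553 ± 32.6 TPM (SD, n = 3 each; adjusted p = 0.0211, limma; 0.0730, 0.0824 and 0.0766 when Plcg2+/+ 1, Plcg2-/- 1 or Plcg2-/- 3 was left out, and 0.0686 with the Y-linked covariate). Of GTPase-activating genes, Srgap2 rose by 1.23 ± 0.14 (SE), while Arhgap25, known to restrain the oxidase of neutrophils, fell from 148 ± 21.4 to 52.7 ± 4.05 TPM (adjusted p = 0.00221 and 0.00141, limma). Of 13 tested inactivators, 5 were higher and 1 lower (all genes: 15.6% and 5.31%), with a median log2 fold change of 0.34. The counts were 3 and 1 after median-of-ratios scaling, 5 and 2 with the replicate block, and 4 and 2 when Plcg2+/+ 3 was left out. When Plcg2+/+ 2 was left out they were 3 and 1, and when Plcg2+/+ 1, Plcg2-/- 1 or Plcg2-/- 3 was, 2 and 1.

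Rac exchange factors, which load Rac with GTP, counted 5 higher and 0 lower of 16 tested (all genes: 15.6% and 5.31%), with a median log2 fold change of 0.43. Arhgef6 rose from 49.0 ± 3.99 to 81.3 ± 4.54 TPM (SD, n = 3 each, adjusted p = 0.00647, limma). Prex1 rose from 51.9 ± 7.55 to 86.4 ± 5.05 TPM (SD, adjusted p = 0.0119, limma, and 0.0563 without Plcg2-/- 1). Arhgef6 is X-linked like Cybb, and its adjusted p was 0.0316 (limma) with the Y-linked covariate. Vav1, an exchange factor of immune receptor signalling, stood at 102 ± 8.57 and 130 ± 8.44 TPM and did not pass (adjusted p = 0.0713, limma, but 0.0497 without Plcg2+/+ 3). Dock2, the main Rac activator of blood cells, stood at 55.6 ± 7.85 and 83.7 ± 16.6 TPM (adjusted p = 0.0590, limma, 0.0331 with the replicate block and 0.0441 without Plcg2-/- 2). Higher counts were 3 after median-of-ratios scaling, 2 when Plcg2+/+ 1, Plcg2+/+ 2 or Plcg2-/- 3 was left out, and 1 when Plcg2-/- 1 was.

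Of 14 tested Rac effectors and WAVE complex genes, 3 were higher and 1 lower (all genes: 15.6% and 5.31%), with a median log2 fold change of 0.35. Pak1 is shared with the assembly list, and so is Pak2. Wasf2, the WAVE subunit of macrophages, rose by 0.69 ± 0.13 and Baiap2, an adaptor of Rac, fell by 1.06 ± 0.21 log2 units (SE; adjusted p = 0.0134 and 0.0170, limma). Wasf2 lost its call (adjusted p by limma) when Plcg2+/+ 1 (0.0503), Plcg2-/- 1 (0.0610) or Plcg2-/- 3 (0.0531) was left out, and Baiap2 when Plcg2+/+ 1 (0.0624), Plcg2+/+ 2 (0.0524), Plcg2-/- 1 (0.0664) or Plcg2-/- 3 (0.0601) was. Counts were 5 and 1 with the replicate block and 2 and 1 after median-of-ratios scaling. Leaving out Plcg2+/+ 1, Plcg2-/- 1 or Plcg2-/- 3 gave 1 and 0, and leaving out Plcg2+/+ 2 gave 2 and 0.

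Genes that supply NADPH, the electron donor, counted 4 higher and 0 lower of 19 tested, with a median log2 fold change of 0.27. That count is close to the 15.6% called higher over all genes. G6pdx, the entry enzyme of the pentose phosphate pathway, was 79.9, 83.6 and 83.2 TPM in Plcg2+/+ and 134, 147 and 163 TPM in Plcg2-/-. The groups were far apart relative to their spread. G6pdx rose by 0.83 ± 0.11 log2 units (SE, adjusted p = 0.00413, limma), and kept its call when any 1 library was left out. G6pdx is X-linked, and the libraries differed in Xist and Y-linked genes, as given with Cybb. With the Y-linked covariate its adjusted p was 0.0230 (limma). Rpe, Aldh1l1 and the NAD kinase gene Nadk also rose, by 0.84, 1.13 and 0.71 log2 units (adjusted p = 0.0194, 0.0282 and 0.0374, limma). Their calls (adjusted p by limma, in the same order) were lost when Plcg2-/- 1 (0.0782, 0.0915 and 0.120) or Plcg2-/- 3 (0.0641, 0.0848 and 0.0948) was left out. Those of Aldh1l1 and Nadk were also lost for Plcg2+/+ 1 (0.0860 and 0.103) and Plcg2+/+ 2 (0.0813 and 0.0668), and that of Nadk for Plcg2-/- 2 (0.0766). The Y-linked covariate ended all 3 calls (0.0609, 0.0506 and 0.0945). Aldh1l1 also lost its call with no filter (0.0719), and Nadk with no filter (0.0831), after quantile normalization (0.119), after median-of-ratios scaling (0.0758), without mitochondrially encoded genes (0.0644) and with a constant prior variance (0.0511). Aldh1l1 is also an astrocyte marker. The counts were 3 and 1 after median-of-ratios scaling; 2 genes were higher when Plcg2+/+ 1 or Plcg2+/+ 2 was left out, and 1 when Plcg2-/- 1 or Plcg2-/- 3 was.

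Enzymes that remove superoxide and peroxide mostly did not pass. Of 26 tested, 2 were higher and 1 lower (all genes: 15.6% and 5.31%), with a median log2 fold change of 0.25. Sod2, the mitochondrial superoxide dismutase, was 95.7, 80.7 and 150 TPM in Plcg2+/+ and 181, 233 and 197 TPM in Plcg2-/- (log2 fold change 0.94 ± 0.23 SE, adjusted p = 0.0329, limma). Its call was lost with no filter (0.0794), without mitochondrially encoded genes (0.0550), after quantile normalization (0.0872), after median-of-ratios scaling (0.0561) and with the Y-linked covariate (0.0865). With 1 library left out in turn, Sod2 kept its call only without Plcg2+/+ 3 (0.00699), and had adjusted p-values by limma of 0.0789 to 0.104 when any other library was. Gpx1, the main cytosolic glutathione peroxidase, was 528, 521 and 601 TPM in Plcg2+/+ and 271, 396 and 313 TPM in Plcg2-/-. It fell by 0.76 ± 0.16 log2 units (SE; adjusted p = 0.0203, limma; 0.0642, 0.0731 and 0.0711 when Plcg2+/+ 1, Plcg2-/- 1 or Plcg2-/- 3 was left out, and 0.0517 with the Y-linked covariate). Glrx, a glutaredoxin, rose from 38.9 ± 8.71 to 82.4 ± 11.0 TPM (adjusted p = 0.0100, limma). Sod1 stood at 205 ± 46.4 and 254 ± 32.9 TPM and Cat, catalase, at 147 ± 27.7 and 238 ± 56.5 TPM (SD, n = 3 each; adjusted p = 0.251 and 0.0653, limma, and for Cat 0.0261 with the replicate block and 0.0455 without Plcg2-/- 1). The counts were 7 and 1 when Plcg2+/+ 3 was left out, 1 and 0 when Plcg2+/+ 1 or Plcg2-/- 3 was, and 2 and 0 when Plcg2-/- 1 was. They were 1 and 1 when Plcg2+/+ 2 or Plcg2-/- 2 was left out, and also after median-of-ratios scaling.

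In the NRF2 and HMOX1 list 4 of 16 genes were higher and 0 lower (all genes: 15.6% and 5.31%), with a median log2 fold change of 0.37. The genes called by these data include Keap1 and Bach1, which are known as inhibitors of NRF2 and of its targets. Bach1 rose by 0.74 ± 0.17 log2 units (SE; adjusted p = 0.0247, limma; 0.0761, 0.0736, 0.0956 and 0.0834 when Plcg2+/+ 1, Plcg2+/+ 2, Plcg2-/- 1 or Plcg2-/- 3 was left out). It also lost its call with no filter (0.0547), after quantile normalization (0.0559), after median-of-ratios scaling (0.0506) and with the Y-linked covariate (0.0640). Keap1 rose from 25.8 ± 2.76 to 44.8 ± 3.14 TPM and Mafk from 17.2 ± 1.32 to 29.9 ± 3.60 TPM (SD, n = 3 each; adjusted p = 0.00689 and 0.00953, limma). Sqstm1, the other gene called, rose by 0.46 ± 0.12 log2 units (SE, adjusted p = 0.0361, limma). It lost that call when any 1 library was left out (adjusted p by limma 0.0556 to 0.117). The target genes Nqo1 and Hmox1 did not pass, at 11.8 ± 1.08 and 14.8 ± 3.87 TPM and at 272 ± 25.6 and 250 ± 24.3 TPM (adjusted p = 0.298 and 0.521, limma). Counts were 7 and 1 with the replicate block, 3 and 1 when Plcg2-/- 2 was left out, and 2 and 0 when Plcg2+/+ 1, Plcg2+/+ 2, Plcg2-/- 1 or Plcg2-/- 3 was, as after median-of-ratios scaling. In a list of nitric oxide synthesis and myeloid peroxidases 1 of 5 tested genes was higher: Gch1, which makes the cofactor of nitric oxide synthase, at 20.7 ± 1.50 and 32.2 ± 2.13 TPM (adjusted p = 0.0122, limma; 0.0515, 0.0597 and 0.0509 when Plcg2+/+ 1, Plcg2-/- 1 or Plcg2-/- 3 was left out). When Plcg2+/+ 3 was left out, 3 genes of that list were higher. Nos2 did not exceed 1.47 TPM in any library.

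**Figure D5:**
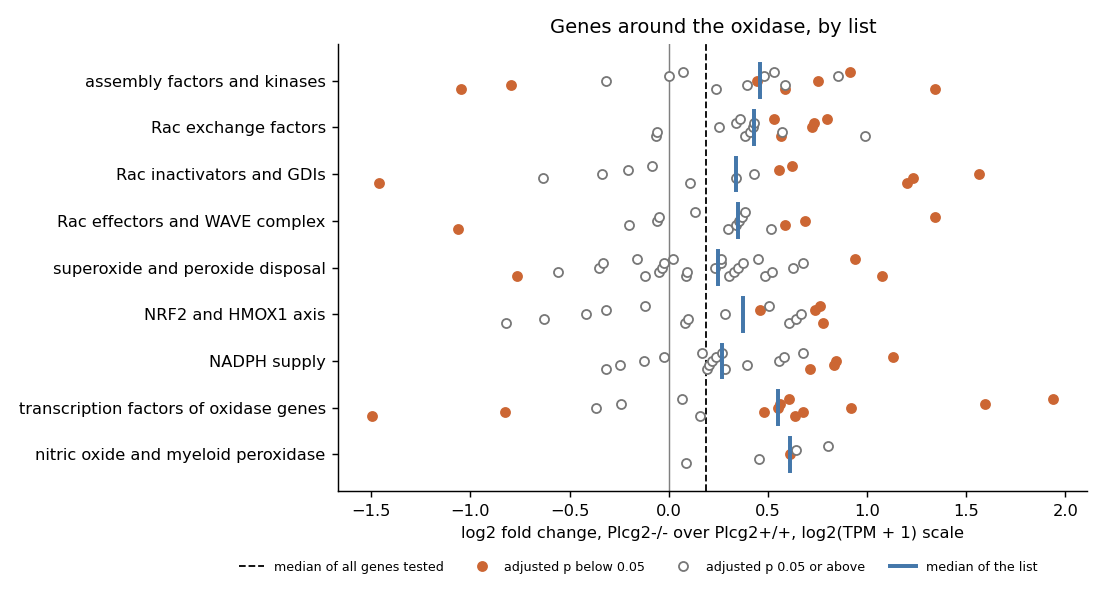
log2 fold change (horizontal axis, Plcg2-/- over Plcg2+/+) of every tested gene in 9 lists around the oxidase (rows); filled circles passed the test, and blue bars are list medians. List medians run from 0.25 for superoxide and peroxide disposal to 0.61 for the nitric oxide list, beside 0.19 for all genes (dashed line).

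Of 15 tested transcription factors known to act on oxidase promoters, 9 were higher and 2 lower, with a median log2 fold change of 0.55, beside 15.6% and 5.31% of all genes. After median-of-ratios scaling 4 were higher and 2 lower, beside 7.88% and 7.21%. Irf1, which binds the repeat shown above for Cybb and Ncf1, rose from 43.5 ± 1.78 to 134 ± 15.9 TPM (SD, n = 3 each; adjusted p = 0.000922, limma). Its log2 fold change was 1.59 ± 0.12 (SE), against -0.05 ± 0.12 for Cybb and 0.38 ± 0.12 for Ncf1. Whether Irf1 acts on Cybb or Ncf1 in these cells was not tested. Spi1, which encodes PU.1, rose from 267 ± 40.7 to 415 ± 30.2 TPM (adjusted p = 0.0221, limma, 0.0556 after median-of-ratios scaling, and 0.0844, 0.0600, 0.0904 and 0.0588 when Plcg2+/+ 1, Plcg2+/+ 2, Plcg2-/- 1 or Plcg2-/- 3 was left out). Irf2 rose by 0.92 ± 0.21 log2 units (SE, adjusted p = 0.0272, limma, called in 2 of the 6 fits that leave out a library). Irf8, the partner of PU.1, stood at 83.3 ± 9.26 and 87.6 ± 14.9 TPM (adjusted p = 0.797, limma). Cebpa and the AP-1 gene Fos fell by 0.82 ± 0.12 and 1.49 ± 0.12 log2 units (SE; adjusted p = 0.00536 and 0.000960, limma). Higher counts of the list were 3 when Plcg2+/+ 1 or Plcg2-/- 3 was left out, 5 when Plcg2+/+ 2 was and 2 when Plcg2-/- 1 was, with 2 lower in each.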

How the data were processed

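RNA of 6 libraries (3 Plcg2+/+, 3 Plcg2-/-) was read as 150-bp paired ends after polyA selection, per the labels' protocols. Gene-level TPM values were what the authors deposited, with 1 column per library. Each column sums to 1000000, so depth cannot be read from it and no count test was run. Salmon 1.3.0, DESeq2 1.30.1 and R 4.0.4 with GRCm38.p6 are named in the submitters' processing notes; annotation release and strand setting were details not given in the sources used here. Salmon estimates how reads that match several transcripts divide, so genes with shared sequence depend on that step. Gene positions and 31-base words came from GENCODE M21 (GRCm38) and promoters from RefSeq (GRCm38.p6).

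Genes averaging 1 TPM or more were put on the log2(TPM + 1) scale, which understates changes of low genes, and tested two-sided by limma 3.58.1 under R 4.3.3, with a prior variance that follows the mean (degrees of freedom 4 residual, 2.97 prior). Adjusted p-values are Benjamini-Hochberg values over all 12652 genes. Fold changes are Plcg2-/- over Plcg2+/+, and intervals are 95% limma intervals. The script was tested on simulated data. Ratios and sums within libraries used exact permutation tests (scipy 1.17.1). Python 3.11.15, pandas 2.3.3, numpy 2.4.6 and matplotlib 3.10.9 were used.

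The members and gene lists were chosen with earlier results of these data known. Genes were named from each list by the smallest p, up to 4 per list, beside Cybc1, Hvcn1, Prkcd, Vav1, Dock2, Arhgdib, Nox4, Sod1, Sod2, Cat, Gpx1, Nqo1, Hmox1, G6pdx, Spi1 and Irf8 whatever their p; other names are marked where they occur, and some genes of the rule are not reported here. Likeness was searched among genes averaging 5 TPM or more.

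Replicate numbers come from the titles. Deviations from genotype means correlated at 0.295, 0.193 and 0.147 between libraries of the same number, all above 0.1. Equal numbers were therefore treated as pairs, but only in alternative fits. The main design and the permutation tests have no such term, so their p-values ignore the pairs, and the alternative fits added the pairs as a block.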

Additional observations from a re-analysis of the deposited data

How the results depend on the processing

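Alternatives were other pseudocounts, filters, scalings and prior variances, the pairs of replicates as a block, the Y-linked level as a covariate, and each library left out; sums of overlapping genes were added after seeing the data. Under these, Cybb and Ncf4 kept their sign and were never called. Cyba, near 0, had log2 fold changes of -0.15 after median-of-ratios scaling (also with the replicate block) and -0.11 rescaled without mitochondrially encoded genes. Its value was 0.28 ± 0.15 (SE, adjusted p = 0.249, limma) after quantile normalization and -0.04 to 0.12 with 1 library left out. Rac1 was not called with no filter (0.78), after quantile normalization (0.57), with the Y-linked covariate (0.78) or summed with Daglb (0.33), and Rac2 not after median-of-ratios scaling (0.47) or quantile normalization (0.38); without 1 library they were 0.64 to 0.91 and 0.54 to 0.72, and Ncf1 0.32 to 0.47. Rescaled without mitochondrially encoded genes, Rac1 was 0.65 and Rac2 0.51, and both were called (adjusted p = 0.0421 and 0.0459, limma). Members called higher numbered 1 with no filter, median-of-ratios scaling, the Y-linked covariate or Daglb added to Rac1, 0 after quantile normalization, and 0 to 3 without 1 library. The log2 ratio of Rac2 to Rac1 was 0.31 with Daglb added. With the replicate block the log2 fold changes were the same as without it (Rac1 0.78, Rac2 0.65), and on deposited TPM it changed no call among the 6 genes; the limma adjusted p was 0.00889 for Rac1 and 0.0194 for Rac2. With the replicate block and median-of-ratios scaling together, Rac2 was called (0.0493) and 2 members were higher.

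Over all genes, 1226 were higher with no filter, 996 after median-of-ratios scaling (1235 with the replicate block), 959 after quantile normalization, 1222 without mitochondrially encoded genes and 842 with the Y-linked covariate, against 1971. Lower were 1031 after quantile normalization, 1061 with the replicate block and median-of-ratios scaling and 375 with the Y-linked covariate, against 672. With the replicate block on deposited TPM, 2483 were higher and 815 lower. After median-of-ratios scaling 911 were lower, close to the number higher. The causes of these changes were not tested. Leaving out 1 library gave 618 to 2150 higher and 308 to 648 lower.

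Of 45 named partner genes 31 were called. Most calls were lost when 1 library was left out: 18 for Plcg2-/- 1, 17 for Plcg2-/- 3 and 16 for Plcg2+/+ 1. The losses were 10 for Plcg2+/+ 2, 4 for Plcg2-/- 2 and 1 for Plcg2+/+ 3. With the Y-linked covariate 13 lost their call, 9 with no filter, and 8 each after median-of-ratios scaling and quantile normalization. Without mitochondrially encoded genes 7 lost it, and 1 with a constant prior variance. Among partner genes near 0, the sign turned as follows. Cybc1 was -0.10 after median-of-ratios scaling (also with the replicate block), -0.23 after quantile normalization and -0.06 without mitochondrially encoded genes. Prkcd was -0.18, -0.20 and -0.13 in the same order, -0.06 with the Y-linked covariate, -0.05 without Plcg2+/+ 3 and -0.07 without Plcg2-/- 2. Irf8 was -0.11, -0.24 and -0.07 in that order, -0.03 without Plcg2+/+ 3 and -0.04 without Plcg2-/- 2. Rac3 was -0.51 to 0.05, and Irf8 reached 0.20, with 1 library left out.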
